A study of Homo sapiens with 9 samples.

Results

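The 10 genes described here are the transcriptional co-activators YAP1 and WWTR1 (the gene for TAZ), their DNA-binding partner TEAD1, and 7 genes known as direct YAP/TAZ targets, namely LATS2, AMOTL1, AMOTL2, AJUBA, CCN1, CCN2 and ANKRD1. They were taken by name from a table of raw counts for 59453 gene names, in which all 10 were found. All 10 also passed the expression filter that left 16556 genes for testing. The RNA came from MDA-MB-231, an established human line of TNBC (triple-negative breast cancer), in 3 groups of 3 RNA-Seq libraries: untreated cells, cells given TEPA for 8 h and cells given TEPA for 24 h. TEPA is a copper chelator. Its concentration is 8 mM in the sample labels and 4 mM in the RNA sequencing methods. Both times share the same untreated group, for which no time or vehicle is labelled. The labels give no genetic change in any group, and all 9 libraries come from this 1 line. The labels do not say whether replicates were separate cultures, so p-values measure only the spread between these libraries, which may be technical.

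Total counts were 37640135, 46515260 and 39937052 in untreated replicates 1 to 3. They were 40719360, 38989396 and 37617385 at 8 h and 49342659, 42338742 and 34633755 at 24 h. In every group the replicates differed by more than sampling noise, most of all untreated replicates 1 and 2 (chi-square per degree of freedom of 25.9 over 12843 genes, against 2.60 to 10.2 for the other pairs within a group). Mitochondrial transcripts took 1.79% to 2.91% of counts in untreated libraries, 3.61% to 4.02% at 8 h and 1.89% to 2.02% at 24 h. When they were left out of the library sizes, the log2 fold changes of the 10 genes moved by at most 0.0048 at 8 h, 0.00087 at 24 h and 0.0057 between the times. By the calls defined below, 8 of the 10 genes kept their result at 8 h, 10 at 24 h and 9 between the times. The nuclear RNAs MALAT1 and NEAT1 together took 0.00568% to 0.00689% of counts in untreated libraries, 0.0125% to 0.0139% at 8 h and 0.00398% to 0.00515% at 24 h, and their part in the results was not tested. The line was checked against marker genes. Among markers of mesenchymal breast cancer lines, VIM (vimentin) stood at 3672 CPM (counts for every 1000000 of the scaled library total) in untreated cells, whereas the epithelial cadherin CDH1 stood at 0.624 CPM. The keratins KRT8 and KRT18, of the same epithelial list as CDH1, stood at 404.5 and 300.9 CPM. The estrogen receptor gene ESR1 had 2 to 9 counts in a library, and the progesterone receptor gene PGR had 0 in all 9, which by counting error alone allows up to 3 counts a library.

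YAP and TAZ are the output of the Hippo pathway, which controls growth in response to cell contact, polarity and mechanical tension. When the MST and LATS kinases are active, YAP and TAZ are phosphorylated, held in the cytoplasm by 14-3-3 proteins or marked for degradation, and when the kinases are inactive, YAP and TAZ enter the nucleus, bind TEAD factors and switch on target genes. Several targets encode inhibitors of the pathway's own output, such as LATS2 and the angiomotin-like proteins, and form a negative feedback loop. In breast cancer cells YAP and TAZ are known for their links to invasion and epithelial-mesenchymal transition. MDA-MB-231 cells carry a known NF2 mutation and are widely used as a line with active YAP/TAZ. RNA levels do not report the phosphorylation or the location of either protein.

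ANKRD1 fell most among the 10 genes, to 0.691 of its untreated level at 8 h and 0.515 at 24 h. WWTR1 fell to 0.701 at 8 h and stood at 0.734 at 24 h, whereas its paralog YAP1 did not pass the test at 8 h and rose to 1.15 of the untreated level at 24 h. CCN2 fell at both times, and CCN1 passed the test at 24 h but not at 8 h. Calls were made in edgeR's quasi-likelihood test with the p adjusted over all genes, at a threshold of 0.05. Against untreated cells, 1 gene was higher and 4 lower at 8 h, where 25.2% of all genes tested were higher and 24.5% lower (49.6% in either direction). At 24 h 4 genes were higher and 5 lower, where 25.7% of all genes were higher and 26.8% lower (52.5% in either direction). The median log2 fold change of the 10 genes was -0.052 at 8 h and -0.068 at 24 h, beside -0.0013 and 0.0023 over all genes tested. Between 8 h and 24 h, 3 genes were higher at 24 h and 3 lower, and over all genes 26% were higher and 28.8% lower (54.8% in either direction). The libraries of the compared groups did not overlap for 1 gene on the higher and 5 on the lower side at 8 h (29.2% and 28.6% of all genes, 57.8% together), for 4 and 5 at 24 h (28.4% and 28.9%, 57.2% together) and for 4 and 3 between the times (29.6% and 32.4%, 62% together). The share of these genes called at 8 h and between the times was close to that background. The counts of calls say less here than the size and the pattern over time of each gene. Both comparisons with untreated cells use the same untreated libraries, so their values are given side by side and are not independent. These are bulk libraries, in which fewer cells expressing a gene and less RNA per cell cannot be told apart.

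**Figure D1:**
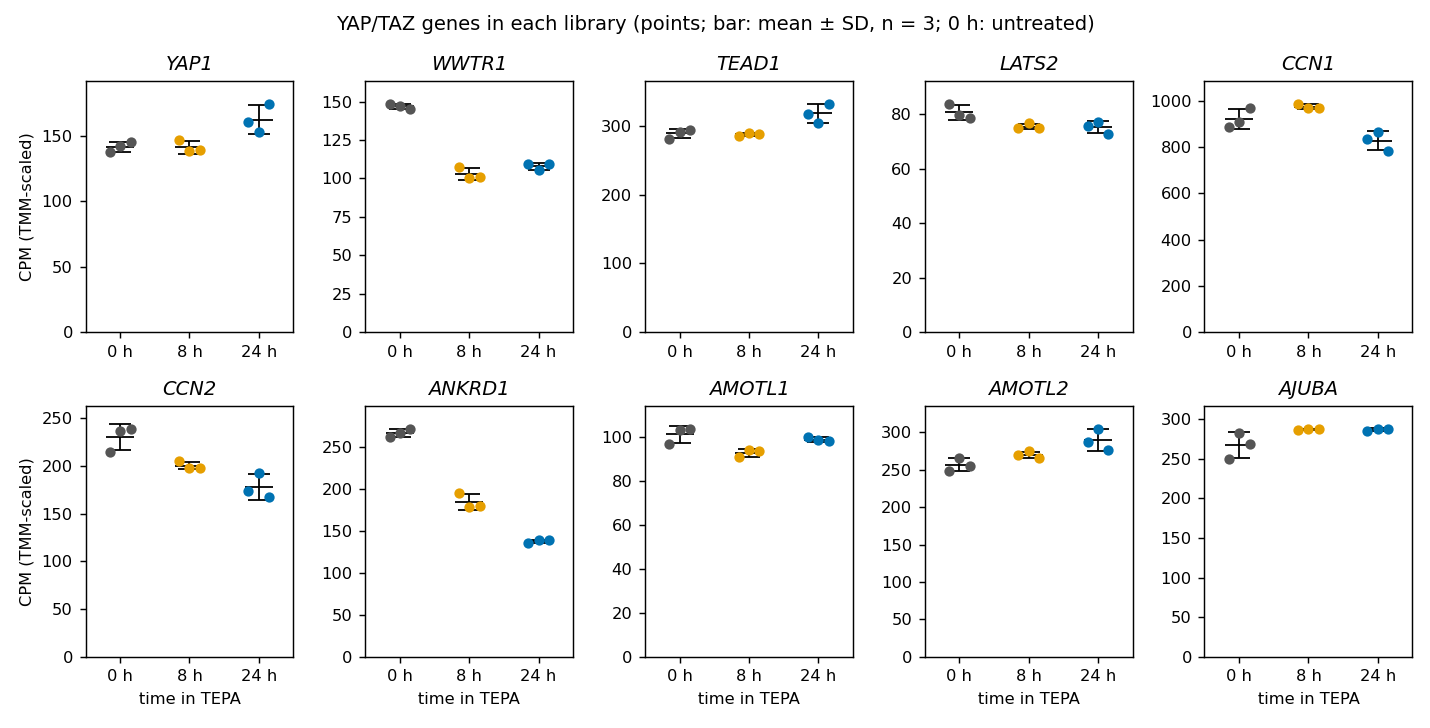
Level of each of the 10 genes in each library, in TMM-scaled CPM (vertical axis from 0), against time in TEPA (0 h is untreated). Points are libraries and bars are the mean ± SD of 3 libraries. ANKRD1 and CCN2 step down at each time, with no overlap between groups, and WWTR1 is low in all 6 treated libraries.

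YAP1, the gene of the co-activator YAP, spans 102110447 to 102233424 of chromosome 11 (hg38, as for all genes here). The level was 137.4, 142.0 and 145.2 CPM in untreated replicates 1 to 3, 147.0, 138.0 and 138.9 CPM at 8 h, and 160.1, 152.6 and 174.3 CPM at 24 h. The 8 h and untreated libraries overlapped, and all 3 libraries at 24 h stood above the other 6. At 8 h the ratio to untreated cells was 0.998 with a 95% interval of 0.931 to 1.07 (log2 fold change -0.0025, SE 0.047, edgeR adjusted p = 0.968). At 24 h YAP1 rose by 0.20 on the log2 scale (SE 0.047, edgeR adjusted p = 0.00231). The rise between 8 h and 24 h was as large (0.20, SE 0.047, edgeR adjusted p = 0.00199).

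WWTR1 encodes TAZ, the paralog of YAP, and lies on chromosome 3 from 149517235 to 149736714. Its level was 148.5, 147.0 and 145.4 CPM in untreated cells. It was 107.3, 100.5 and 101.2 CPM at 8 h and 109.3, 105.2 and 109.2 CPM at 24 h. All 6 treated libraries stood below the untreated ones, and the 8 h and 24 h libraries overlapped. WWTR1 fell by 0.51 on the log2 scale at 8 h (SE 0.038, edgeR adjusted p = 4.56e-08) and by 0.45 at 24 h (SE 0.038, edgeR adjusted p = 9.71e-08). With any 1 library left out, the 8 h change ran from -0.55 to -0.50 and the 24 h change from -0.46 to -0.43. The 24 h level was 1.05 times the 8 h level with a 95% interval of 0.991 to 1.11, which did not pass the test (edgeR adjusted p = 0.148). It passed without the first 8 h library, at a log2 difference of 0.10 (edgeR adjusted p = 0.0473).

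Since both co-activators were counted in the same libraries, the ratio of their counts does not depend on how libraries are scaled. WWTR1 had 1.08, 1.035 and 1.001 counts for each YAP1 count in untreated cells, 0.7298, 0.7285 and 0.7284 at 8 h and 0.6828, 0.6895 and 0.6265 at 24 h. The 3 groups did not overlap. The mean was 1.04 ± 0.040 (SD, n = 3) in untreated cells, 0.729 ± 0.00078 (SD, n = 3) at 8 h and 0.666 ± 0.035 (SD, n = 3) at 24 h. A permutation of 3 libraries against 3 cannot give a two-sided p under 0.1, so these ratios are given as values with no test.

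TEAD1 encodes a transcription factor through which YAP and TAZ reach DNA, and lies on chromosome 11 from 12674421 to 12944737. Untreated libraries held 281.0, 291.7 and 293.8 CPM, the 8 h libraries 285.4, 289.8 and 287.5 CPM, and the 24 h libraries 317.2, 304.8 and 331.9 CPM. The 8 h values lay within the untreated range and the 24 h values lay above it. TEAD1 rose by 0.14 at 24 h on the log2 scale (SE 0.037, edgeR adjusted p = 0.00557). At 8 h the ratio was 0.995 with a 95% interval of 0.942 to 1.05 (edgeR adjusted p = 0.899). Among pairs of the 10 genes, TEAD1 and YAP1 differed least over the 9 libraries, with a root mean square difference of 0.043 in log2 CPM centred on each gene's mean. This measure is not scaled to the size of change, so genes that moved little tend to lie close together.

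The 4 targets that feed back on the pathway moved little, and not in 1 direction. LATS2, on chromosome 13 from 20973036 to 21061586, encodes, like LATS1, a kinase that phosphorylates YAP and TAZ. Its level was 83.75, 79.73 and 78.57 CPM in untreated cells, 74.88, 76.56 and 74.76 CPM at 8 h and 75.58, 77.15 and 72.84 CPM at 24 h. Neither treated group overlapped the untreated one, as for 28.6% of all genes on the lower side at 8 h and 28.9% at 24 h. The change was -0.10 on the log2 scale at both times (SE 0.040), with edgeR adjusted p = 0.0549 at 8 h and 0.0441 at 24 h. The 24 h call was lost without untreated replicate 1 or 2, replicate 2 or 3 at 8 h, or replicate 1 or 3 at 24 h (adjusted p = 0.0554 to 0.144). It was also lost with DESeq2, RLE or upper-quartile factors, no filter on low counts, or 10 counts in every library. A fit on only the groups compared and the replicate block lost it too (adjusted p = 0.0572 to 0.129 over all these settings).

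AMOTL1 and AMOTL2 encode angiomotin-like proteins, which bind YAP and TAZ at cell junctions and keep them out of the nucleus. AMOTL1, on chromosome 11 from 94706431 to 94876748, stood at 96.97, 103.1 and 104.0 CPM in untreated cells, at 90.97, 94.30 and 93.63 CPM at 8 h and at 100.2, 98.61 and 98.08 CPM at 24 h. The 8 h libraries were the lowest and the 24 h libraries lay within the untreated range. AMOTL1 fell by 0.12 at 8 h (log2, SE 0.039, edgeR adjusted p = 0.0137), a call lost without untreated replicate 3 (adjusted p = 0.055), and its 24 h value was -0.03 (SE 0.038, adjusted p = 0.475). AMOTL2, on chromosome 3 from 134355347 to 134375479, is the second of the pair. It stood at 248.5, 266.4 and 255.8 CPM in untreated cells, at 269.9, 274.6 and 266.3 CPM at 8 h and at 286.6, 305.3 and 276.9 CPM at 24 h. The 24 h libraries were above all others, and the lowest 8 h library was just under the highest untreated one. AMOTL2 rose by 0.17 at 24 h (log2, SE 0.041, edgeR adjusted p = 0.00216) and did not pass the test at 8 h (0.07, SE 0.041, adjusted p = 0.153). In the annotation, 187 bases of its exons are shared on the same strand with the pseudogene RPL39P5.

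AJUBA encodes a LIM domain protein of cell junctions that binds and restrains the LATS kinases, and lies on chromosome 14 from 22971177 to 22982551. Untreated libraries held 249.9, 283.1 and 268.8 CPM, against 286.2, 287.0 and 288.2 CPM at 8 h and 285.1, 287.7 and 287.8 CPM at 24 h. All 6 treated libraries were above the untreated ones, which were themselves spread widely. The log2 fold change was 0.10 at both times (SE 0.041), with edgeR adjusted p = 0.0477 at 8 h and 0.0474 at 24 h. Both calls were lost when any 1 library other than untreated replicate 2 was left out. Without untreated replicate 1, the lowest library, the log2 fold change was 0.05 at both times (adjusted p = 0.204 and 0.195). Of its exon bases, 50 are shared on the same strand with ENSG00000259132.

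**Figure D2:**
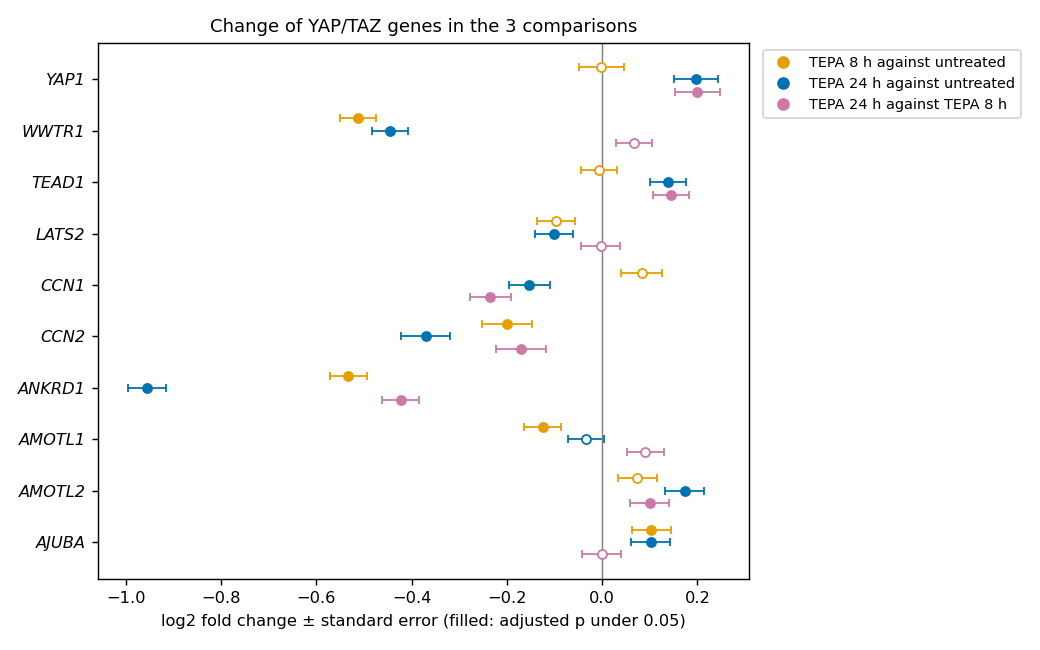
Log2 fold change (horizontal axis) of the 10 genes in the 3 comparisons, with standard errors. Filled points have an edgeR adjusted p under 0.05. ANKRD1 lies farthest from 0, at -0.53 at 8 h and -0.96 at 24 h, and YAP1, TEAD1 and AMOTL2 lie to the right of 0 at 24 h.

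CCN1, CCN2 and ANKRD1 are the targets most used to read YAP/TAZ activity. CCN1 and CCN2 (also known as CYR61 and CTGF) encode secreted matricellular proteins that act on adhesion and growth, and ANKRD1 encodes an ankyrin repeat protein of muscle sarcomeres and the nucleus. CCN1, on chromosome 1 from 85580761 to 85584589, was the most abundant of the 10 genes in all 9 libraries. It stood at 886.2, 905.9 and 968.0 CPM in untreated cells, at 985.9, 969.6 and 967.2 CPM at 8 h and at 836.0, 863.3 and 783.1 CPM at 24 h. The 8 h and untreated libraries overlapped by a narrow margin, and the 24 h libraries were the 3 lowest. At 8 h its ratio to untreated cells was 1.06 with a 95% interval of 0.994 to 1.13 (log2 0.08, SE 0.043, edgeR adjusted p = 0.123). It fell by 0.15 at 24 h (log2, SE 0.043, edgeR adjusted p = 0.00692) and by 0.24 between 8 h and 24 h (SE 0.043, adjusted p = 2.31e-04).

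CCN2 lies on chromosome 6 from 131948176 to 131951372, on the minus strand. Its level was 214.1, 236.8 and 239.2 CPM in untreated cells, 204.7, 197.9 and 198.1 CPM at 8 h and 174.1, 192.5 and 167.1 CPM at 24 h. No library of any group overlapped those of another. CCN2 fell by 0.20 on the log2 scale in the 8 h libraries (SE 0.052, edgeR adjusted p = 0.00447) and by 0.37 in the 24 h libraries (SE 0.052, adjusted p = 2.06e-05). The difference between the times was -0.17 (SE 0.052, adjusted p = 0.0112). That difference lost its call without the first 24 h library (-0.15, adjusted p = 0.0513) or the third (-0.13, adjusted p = 0.0608).

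ANKRD1 lies on chromosome 10 from 90912096 to 90921087, on the minus strand. It stood at 262.3, 266.6 and 272.3 CPM in untreated cells, at 195.2, 178.9 and 179.6 CPM at 8 h and at 135.2, 139.0 and 138.8 CPM at 24 h. The groups were far apart beside their spread, and every 24 h library was below every 8 h library. ANKRD1 fell by 0.53 at 8 h (log2, SE 0.039, edgeR adjusted p = 4.65e-08), by 0.96 at 24 h (SE 0.040, adjusted p = 5.27e-11) and by 0.42 between the times (SE 0.040, adjusted p = 2.89e-07). Leaving out any 1 library moved these values only between -0.58 and -0.52 at 8 h, -0.97 and -0.94 at 24 h, and -0.44 and -0.38 between the times.

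The 3 targets thus did not keep a fixed proportion. ANKRD1 had 0.291 ± 0.0080 counts for each CCN1 count in untreated cells (SD, n = 3), 0.189 ± 0.0075 at 8 h and 0.167 ± 0.0092 at 24 h. CCN2 had 0.25 ± 0.010 counts for each CCN1 count in untreated cells, 0.206 ± 0.0019 at 8 h and 0.215 ± 0.0075 at 24 h. The ratio of ANKRD1 to CCN2 was 1.16 ± 0.054, 0.921 ± 0.028 and 0.776 ± 0.054 in the same order. For ANKRD1 to CCN1 and ANKRD1 to CCN2 no library of a group overlapped those of another. For CCN2 to CCN1 both treated groups lay below the untreated one, with values of 0.204 to 0.208 at 8 h and 0.208 to 0.223 at 24 h.

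**Figure D3:**
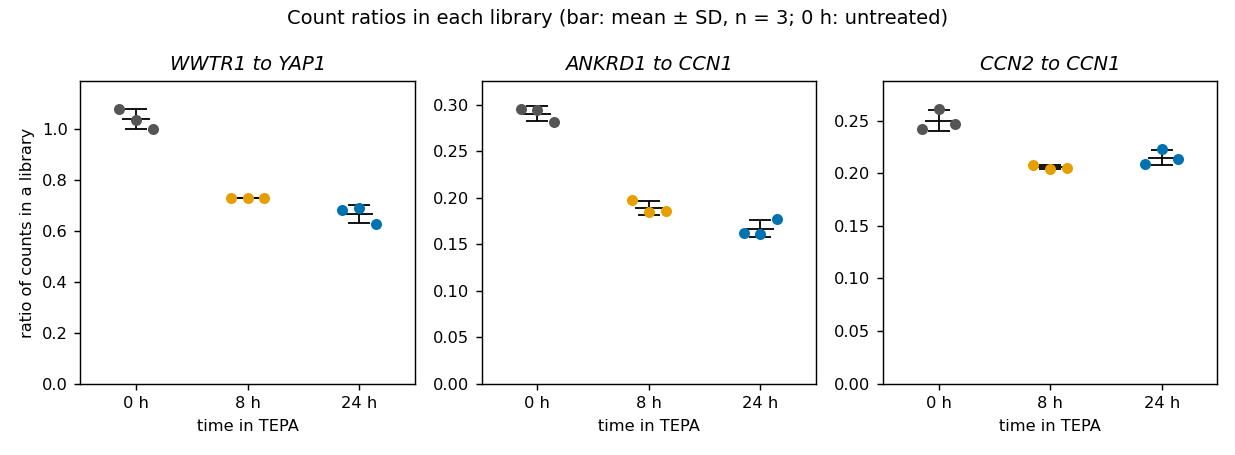
Ratio of counts in each library (vertical axis from 0, no unit) against time in TEPA, for WWTR1 to YAP1, ANKRD1 to CCN1 and CCN2 to CCN1. Points are libraries and bars are the mean ± SD of 3. All 3 ratios are lower in every treated library than in any untreated one.

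TEAD factors bind the sequence CATTCC, which reads GGAATG on the other strand. It was searched for on both strands in the 250 bases before the transcription start, as RefSeq gives it on GRCh38.p14, since ANKRD1 and CCN2, which fell furthest of the 7 targets among the 10 genes, are known TEAD-bound genes. The search covered 11 promoters of 8 genes among the 10, and 5 promoters held a match. Over all 35116 promoters of that length, 11.9% held at least 1 match, 0.94% at least 2 and 0.0826% at least 3. CCN2 held 3 matches and ANKRD1 held 2. Both were known as TEAD-bound genes beforehand, so setting them beside these shares is no test. The sequences run 5′ to 3′ on the strand of the gene, end at the base before the start, and have the matches in capitals. The CCN2 window is chr6:131951373-131951622 and the ANKRD1 window is chr10:90921088-90921337, both on the minus strand.
CCN2: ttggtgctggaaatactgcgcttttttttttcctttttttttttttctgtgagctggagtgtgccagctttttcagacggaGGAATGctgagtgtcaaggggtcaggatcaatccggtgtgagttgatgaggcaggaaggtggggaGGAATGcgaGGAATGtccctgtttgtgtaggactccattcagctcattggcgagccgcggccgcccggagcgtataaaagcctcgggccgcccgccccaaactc
ANKRD1: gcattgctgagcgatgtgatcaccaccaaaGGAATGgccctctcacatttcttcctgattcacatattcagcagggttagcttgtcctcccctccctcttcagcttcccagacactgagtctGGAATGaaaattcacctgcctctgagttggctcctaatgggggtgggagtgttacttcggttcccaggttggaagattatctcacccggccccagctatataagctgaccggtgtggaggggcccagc

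Counting back from the start, the CCN2 matches lie at -169 to -164, -104 to -99 and -95 to -90, the last pair being 3 bases apart. The ANKRD1 matches lie at -220 to -215 and -128 to -123. ANKRD1 also held a match to TGANTCA (searched on both strands, where N is any base) at -195 to -189, and 6.57% of all promoters held a match. This pattern is looser than the AP-1 site, which has C or G in place of N. The ANKRD1 match reads TGATTCA. YAP1 had 1 match to CATTCC, as had 1 of the 2 promoters each of AMOTL2 and AJUBA, while WWTR1, LATS2 and AMOTL1 had none in their windows. The SRF CArG box was found in 1.16% of all promoters and in none of these 11. A match is a run of letters and was not tested for binding in these cells, and no file here measures TEAD binding.

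Levels of different genes were compared per length, as RPKM, which is the CPM divided by the length of the merged exons in kilobases, computed here with GENCODE lengths. In untreated cells CCN1 was highest at 249 ± 11.5 RPKM (SD, n = 3), followed by ANKRD1 at 149 ± 2.81 and CCN2 at 98.4 ± 5.92. AJUBA stood at 45.4 ± 2.84, AMOTL2 at 39.7 ± 1.39, TEAD1 at 27.0 ± 0.643, YAP1 at 22.4 ± 0.620, WWTR1 at 17.6 ± 0.187, LATS2 at 14.4 ± 0.484 and AMOTL1 at 10.1 ± 0.382 RPKM. No neighbours in this order overlapped. Lengths came from a later annotation release than the counts, so these levels, and the order of genes at similar levels, are approximate. At 8 h WWTR1, at 12.3 ± 0.447 RPKM, had passed below LATS2, at 13.4 ± 0.179, without overlap. At 24 h these were 12.9 ± 0.279 and 13.4 ± 0.389 RPKM and overlapped. By then ANKRD1 and CCN2 were also level, at 76.9 ± 1.18 and 76.1 ± 5.61 RPKM, with CCN1 still far above in all 3 libraries, at 212 to 233 RPKM.

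The upstream Hippo genes were described from fixed lists. Of 15 genes for kinases and their scaffolds, 5 were higher and 3 lower at 8 h, and 10 were higher and 1 lower at 24 h. Over all genes tested 25.2% were higher and 24.5% lower at 8 h, and 25.7% and 26.8% at 24 h, so that the 8 h count in either direction was near its background of 49.6%. The median log2 fold change was 0.06 at 8 h and 0.15 at 24 h, beside the medians near 0 over all genes given above. TAOK2, a kinase that activates the MST kinases, rose most at both times, by 0.61 at 8 h (log2, SE 0.043, edgeR adjusted p = 3.45e-08) and 0.50 at 24 h (SE 0.043, adjusted p = 1.4e-07). It stood at 80.5, 86.2 and 80.9 CPM in untreated cells and at 122, 125 and 130 CPM at 8 h, with 122, 116 and 112 CPM at 24 h, so that treated and untreated libraries did not overlap. SAV1, the scaffold of the MST kinases, fell most at 8 h (log2 -0.30, SE 0.057, adjusted p = 3.86e-04) and stood at -0.07 at 24 h (adjusted p = 0.295). The 1 gene that was lower at 24 h was MAP4K4, a kinase that acts beside the MST kinases, at -0.10 (adjusted p = 0.0297), and this call was lost without the first untreated library (adjusted p = 0.0829) or the first 24 h library (adjusted p = 0.15), and with upper-quartile factors, only the groups compared or the replicate block (adjusted p = 0.0512 to 0.0856).

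Of 10 genes for junction and polarity proteins, 4 were higher and 3 lower at each time, with medians of 0.07 and 0.10, where 49.6% of all genes were called in either direction at 8 h and 52.5% at 24 h. WTIP, which encodes a LIM protein related to AJUBA, fell most at both times. Its level was 9.38, 9.41 and 8.97 CPM in untreated cells, 6.25, 6.66 and 6.55 CPM at 8 h and 3.47, 4.35 and 3.39 CPM at 24 h. The 3 groups were separate, and WTIP fell by 0.51 at 8 h (log2, SE 0.094, edgeR adjusted p = 3.01e-04) and by 1.31 at 24 h (SE 0.099, adjusted p = 3.04e-08), whereas AJUBA did not fall. The giant cadherin FAT1 rose most at 8 h (0.33, adjusted p = 3.19e-05) and its relative FAT4 at 24 h (0.55, SE 0.055, adjusted p = 5.08e-07).

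Of 7 other TEAD and VGLL genes, 5 were tested. VGLL1 and VGLL2, co-factors that compete with YAP for TEAD, had 0 counts in every library. Their relative VGLL4 was the most abundant gene of the list in every library, and its untreated mean was 62.55 CPM. The log2 change of VGLL4 was -0.18 at 8 h (SE 0.048, edgeR adjusted p = 0.00494) and 4e-04 at 24 h (adjusted p = 0.995). Between the times VGLL4 rose by 0.18 (SE 0.048, edgeR adjusted p = 0.00415). It was chosen after its values were seen. No gene of this list was higher at either time, 2 were lower at 8 h and 1 at 24 h, with medians of 0.013 and 4e-04, beside 24.5% and 26.8% of all genes on the lower side. TEAD2 fell most, by 0.30 at 8 h (log2, SE 0.060, edgeR adjusted p = 7.13e-04), and stood at -0.15 at 24 h (adjusted p = 0.0392), a call lost without untreated replicate 1 or 3, replicate 2 at 8 h, or replicate 1 or 3 at 24 h (adjusted p = 0.0511 to 0.156). It was also lost with DESeq2, RLE or upper-quartile factors, 10 counts in every library, only the groups compared or the replicate block (adjusted p = 0.0505 to 0.0776). TEAD1, described above, did not fall. Of 11 genes whose products hold YAP and TAZ in the cytoplasm or mark them for degradation (14-3-3 proteins, casein kinase 1 and ligase adaptors), 2 were higher and 6 lower at 8 h, and 1 was higher and 7 lower at 24 h. The medians were -0.10 and -0.12. The higher side held 25.2% and 25.7% of all genes, and the lower side 24.5% and 26.8%. YWHAZ, the most abundant 14-3-3 gene of the list, stood at 1903 ± 80.1 CPM in untreated cells (SD, n = 3), 1533 ± 68.8 CPM at 8 h and 1489 ± 88.6 CPM at 24 h, and fell by 0.31 and 0.35 (log2, SE 0.048, edgeR adjusted p = 6.72e-05 and 1.57e-05). CSNK1E, a casein kinase 1 gene, fell by 0.36 at 24 h (SE 0.042, adjusted p = 2.65e-06). BTRC, the adaptor of the ligase that recognises phosphorylated YAP and TAZ, rose most, by 0.16 and then 0.15 on the log2 scale (SE 0.052, adjusted p = 0.0162 and 0.0202), and both calls were easily lost. The 8 h call was lost without untreated replicate 3 or replicate 2 at 8 h, or with no filter on low counts (adjusted p = 0.0581 to 0.0984). The 24 h call was lost without untreated replicate 2 or 3 or replicate 1 or 2 at 24 h, or with no filter (adjusted p = 0.0503 to 0.104).

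**Figure D4:**
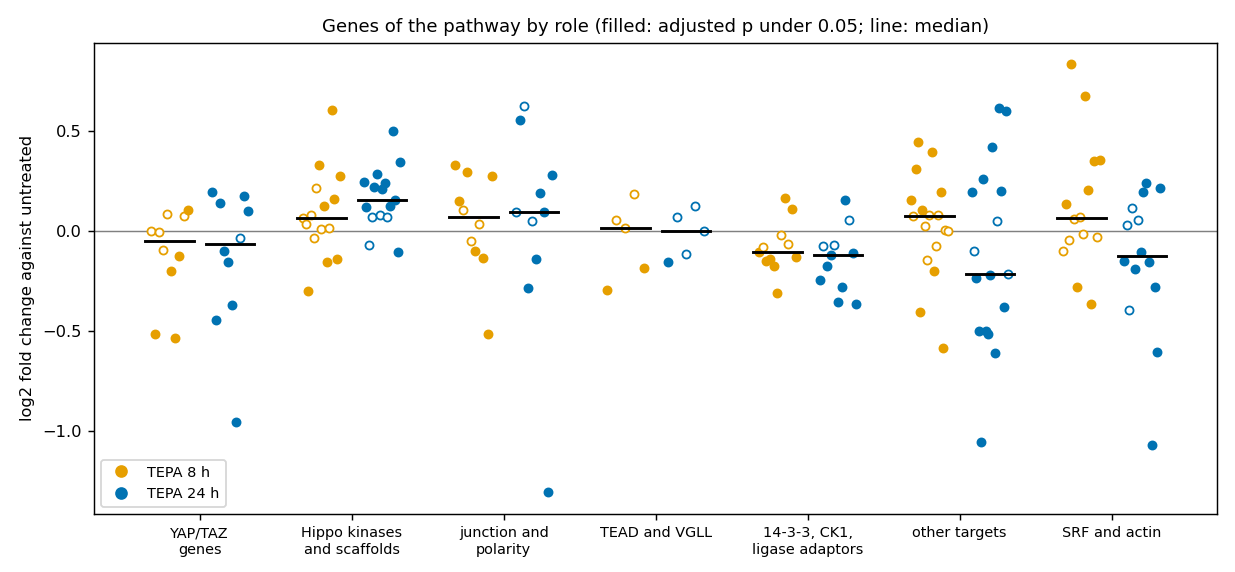
Log2 fold change against untreated cells (vertical axis) of every tested gene in 7 lists, at 8 h and 24 h. Filled points have an edgeR adjusted p under 0.05 and lines are medians. The kinase list has its median at 0.15 at 24 h, and the list of other targets moves from 0.07 at 8 h to -0.21 at 24 h.

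A further 17 genes often used as YAP/TAZ targets were followed to see whether the 3 best known ones stood for the rest. At 8 h 6 were higher and 3 lower with a median of 0.07, and at 24 h 6 were higher and 8 lower with a median of -0.21. The count called in either direction at 8 h was near the 49.6% of all genes, and at 24 h that background was 52.5%. Between 8 h and 24 h 5 were higher and 8 lower, with a median of -0.17 beside -0.0155 over all genes, of which 26% were higher and 28.8% lower. These targets moved in both directions at 24 h, as did the 10 genes.

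Of these genes, F3 and AXL rose at 8 h and had fallen below untreated cells at 24 h. F3, which encodes tissue factor, stood at 149.7, 205.7 and 189.5 CPM in untreated cells, at 264.5, 234.8 and 241.7 CPM at 8 h and at 133.5, 120.9 and 131.3 CPM at 24 h. It was above all untreated libraries at 8 h and below all of them at 24 h, with log2 changes of 0.44 (SE 0.083, edgeR adjusted p = 3.80e-04) and -0.50 (SE 0.084, adjusted p = 1.23e-04). AXL encodes a receptor tyrosine kinase. Its level was 601.7, 742.0 and 709.3 CPM in untreated cells, 841.3, 857.0 and 846.7 CPM at 8 h and 595.3, 588.1 and 560.2 CPM at 24 h. The log2 changes of AXL were 0.31 and -0.24 (SE 0.058, edgeR adjusted p = 3.56e-04 and 0.00278). Untreated replicate 1 was the lowest untreated library for both genes. AXL was chosen for description after its values were seen, as were NT5E and TGFB2 below.

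NT5E and IGFBP3 fell at both times. NT5E, the ecto-5′-nucleotidase CD73, stood at 360 ± 8.19 CPM in untreated cells (SD, n = 3), 314 ± 0.416 CPM at 8 h and 236 ± 2.41 CPM at 24 h (log2 -0.20 and -0.61, SE 0.033, edgeR adjusted p = 1.18e-04 and 7.92e-10). IGFBP3, an insulin-like growth factor binding protein, was low in abundance, at 8.78 ± 0.901, 6.64 ± 0.273 and 4.25 ± 0.412 CPM in the same order (log2 -0.41 and -1.06, SE 0.097 and 0.101, adjusted p = 0.00255 and 3.82e-07). NUAK2, a kinase of the AMPK family, fell most at 8 h (log2 -0.59, SE 0.065, adjusted p = 2.45e-06) and was -0.38 at 24 h (SE 0.063, adjusted p = 1.08e-04).

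PTPN14 and TGFB2 rose at 24 h. PTPN14, a phosphatase that itself restrains YAP, stood at 291.5, 325.5 and 331.0 CPM in untreated cells, at 317.8, 341.1 and 342.2 CPM at 8 h and at 485.0, 477.6 and 490.2 CPM at 24 h. The untreated and 8 h libraries overlapped and the 24 h libraries were far above both, with a log2 change of 0.62 (SE 0.046, edgeR adjusted p = 2.92e-08). TGFB2, which encodes a TGF-β ligand, was at 184 ± 5.84, 185 ± 6.87 and 279 ± 2.70 CPM in the 3 groups (SD, n = 3), a log2 change of 0.60 at 24 h (SE 0.038, adjusted p = 4.33e-09).

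**Figure D5:**
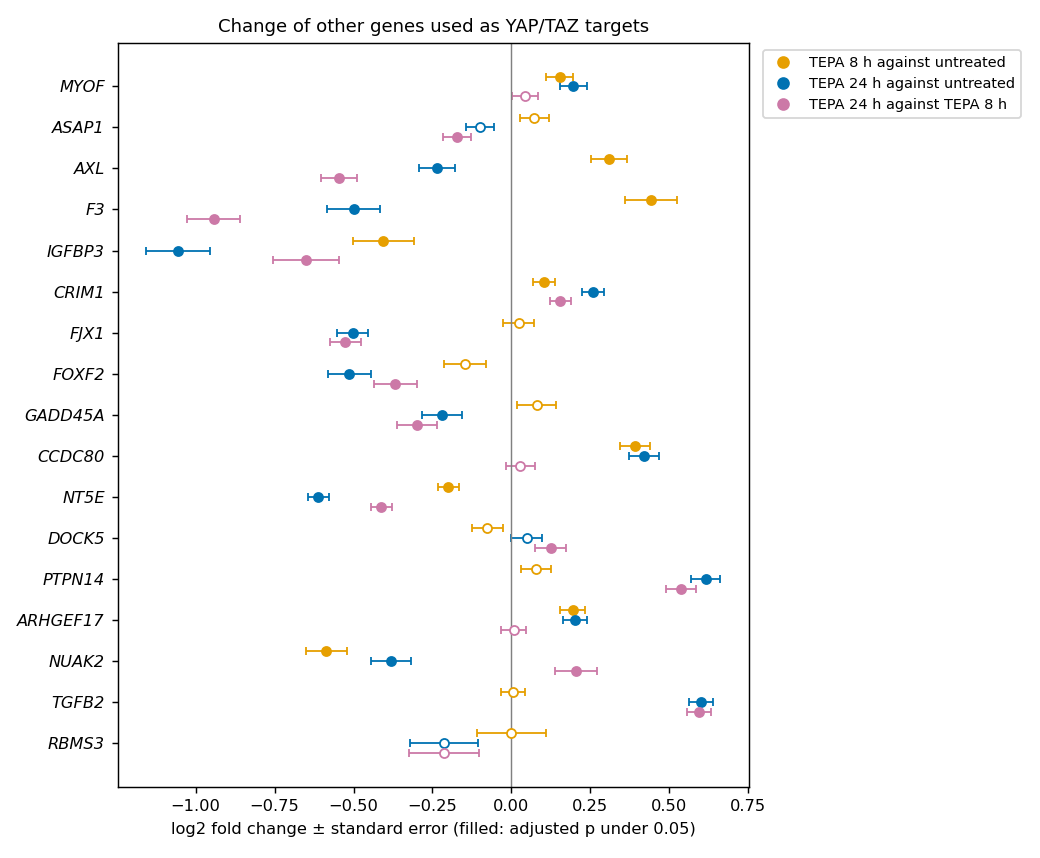
Log2 fold change (horizontal axis) with standard error of 17 further YAP/TAZ target genes in the 3 comparisons. Filled points have an edgeR adjusted p under 0.05. F3 and AXL lie to the right of 0 at 8 h and to the left at 24 h, IGFBP3 lies at -1.06 at 24 h, and PTPN14 and TGFB2 lie near 0.6 at 24 h.

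Actin tension feeds into YAP/TAZ, and the actin-regulated factor SRF shares several targets with them. Of 15 SRF and actin genes, 14 were tested, of which 6 were higher and 2 lower at 8 h, and 3 were higher and 7 lower at 24 h, with medians of 0.07 and -0.13, against 49.6% and 52.5% of all genes called in either direction. Between the times 2 were higher and 10 lower at 24 h, with a median of -0.30, where 26% of all genes were higher and 28.8% lower and the median over all genes was -0.0155. SRF itself stood at 132 ± 2.59 CPM in untreated cells (SD, n = 3), 153 ± 3.61 CPM at 8 h and 119 ± 4.96 CPM at 24 h, log2 changes of 0.21 and -0.15 (SE 0.039, edgeR adjusted p = 4.32e-04 and 0.00356). The actin crosslinker gene FLNA followed the same course, with log2 changes of 0.35 and -0.28 (SE 0.042, adjusted p = 5.34e-06 and 3.78e-05). SRF and FLNA were chosen after their values were seen. TAGLN, an actin-binding protein of smooth muscle, rose most at 8 h (0.83, SE 0.125, adjusted p = 4.90e-05), from 5.38 to 9.65 CPM, and stood at 0.11 at 24 h (adjusted p = 0.483). FHL2, a LIM domain co-factor, fell most at both times (log2 -0.36 and -1.07, SE 0.068 and 0.070, adjusted p = 3.52e-04 and 5.87e-09). TPM2, a tropomyosin, was the gene with the largest rise at 24 h (0.24, adjusted p = 0.0136), and its call was lost without untreated replicate 1 (adjusted p = 0.056) or the first 24 h library (adjusted p = 0.079).

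Of 6 relatives of the CCN and ANKRD1 genes, 2 were tested. CCN4, CCN5, CCN6 and ANKRD2 had at most 15 counts in a library and did not pass the filter, and CCN6 had 0 in all 9. CCN3 stood at 5.24 ± 0.641 CPM in untreated cells (SD, n = 3) and 3.54 ± 0.149 CPM at 24 h, a fall of 0.57 on the log2 scale (SE 0.111, edgeR adjusted p = 4.41e-04). ANKRD23 rose from 0.528 ± 0.0439 to 1.14 ± 0.241 CPM at 8 h (log2 1.09, SE 0.242, adjusted p = 0.00147). At 24 h ANKRD23 stood at 0.649 ± 0.106 CPM and did not pass against untreated cells (log2 0.30, edgeR adjusted p = 0.352). That level was lower than at 8 h (log2 -0.79, edgeR adjusted p = 0.00865).

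Genes whose course over the 9 libraries was most like that of a given member were found among 11919 genes with a mean of at least 100 counts, by the root mean square difference in log2 CPM centred on each gene's mean. For WWTR1 these were BNIP3 at 0.035, PDLIM5 at 0.040 and NAMPT at 0.045. YAP1 was closest to AP4E1 at 0.022 and BPNT2 at 0.023. For CCN1 they were CNN2, ALAS1 and BAIAP2 at 0.025, and for CCN2 they were PPIF at 0.032, MRPL36 at 0.038 and PNP at 0.042. ANKRD1 had less close matches, C17orf75 at 0.050, ACTG2 at 0.065 and NSMCE4A at 0.066. The difference is not scaled to the size of change, so it tends to be larger for genes that changed more, as ANKRD1 did. No other of the 10 genes was among the 3 closest to any of these 5.

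Some markers of the line itself were also called, and their part in the results above was not tested. Of 5 epithelial markers, 0 were higher and 2 lower at 8 h, and 2 were higher and 1 lower at 24 h, counts near the 49.6% and 52.5% of all genes called in either direction. CDH1 stood at 0.624, 0.351 and 3.19 CPM in untreated cells, at 8 h and at 24 h, and was 5.02-fold higher at 24 h (log2 2.33, SE 0.245, edgeR adjusted p = 1.06e-06). KRT8 was the most abundant, and the list summed to 700.2 to 715.3 CPM in untreated libraries, 578.8 to 606.5 CPM at 8 h and 664.2 to 712 CPM at 24 h. Of 4 markers of mesenchymal lines, 3 were higher and 1 lower at 8 h, and 1 was higher and 2 lower at 24 h, beside the same shares of all genes. VIM was the most abundant, with log2 changes of 0.26 and -0.12 (SE 0.039, edgeR adjusted p = 6.42e-05 and 0.0201), and the list summed to 5555 to 5976 CPM in untreated libraries, 6682 to 6860 CPM at 8 h and 5451 to 5695 CPM at 24 h.

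Of 13 markers of luminal breast, leukocyte, endothelial and fibroblast cells, 10 did not pass the filter. The leukocyte gene PTPRC had at most 5 counts in a library, the T cell gene CD3E had 0, the endothelial genes CDH5 and VWF had at most 3, and the fibroblast gene DCN had at most 4. Summed over the list, the markers took 27.2 to 30.3 CPM in untreated libraries, 44.8 to 45.7 CPM at 8 h and 40.0 to 41.7 CPM at 24 h, with COL1A1 the most abundant in every library. COL1A1 stood at 13.7, 32.4 and 18.0 CPM in the 3 groups and PECAM1 at 3.59, 1.06 and 8.13 CPM, while the third tested marker was GATA3, at 10.6, 11.5 and 14.1 CPM.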

How the data were processed

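The authors used FastQC for read quality, HISAT2 for alignment to hg38, and featureCounts with an Ensembl GRCh38 annotation to count read pairs on the exons of each gene name, with strand used. What they deposited are those raw counts for each library, with no normalization.

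In R 4.3.3 with edgeR 4.0.16, filterByExpr (minimum count 10) kept 16556 genes, which hold 99.95% of the counts. Libraries were scaled by TMM. All 9 were fitted in one quasi-likelihood model without covariates, with Benjamini-Hochberg adjustment over all genes tested and calls at an adjusted p under 0.05. The standard error is the size of a log2 fold change over the root of its F, and 95% intervals are unadjusted and use that test's degrees of freedom. The procedure was tested on simulated counts.

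Alternatives were DESeq2 1.42.0, RLE or upper-quartile scaling, other filters and cut-offs, a fit on just the groups compared, a replicate block, library sizes without mitochondrial genes, and leaving out each library. Positions and exon lengths are from GENCODE v44 on hg38, a later release than the authors used. The members and lists were chosen with earlier results of these data known. Named are the 10 genes, the largest called rise and fall of each list against untreated cells, and the 3 genes most like YAP1, WWTR1, CCN1, CCN2 and ANKRD1. Not every gene found this way is reported here. CCN1 and TEAD1 had no entry in the promoter table. No pairing of libraries by replicate number was seen in their values.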

Additional observations from a re-analysis of the deposited data

Results flagged for a closer look

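For 6 of the 10 genes the change against untreated cells differed between the times by a test of the difference itself, in edgeR's quasi-likelihood test. The change in ANKRD1 was lower at 24 h than at 8 h by 0.42 on the log2 scale (24 h minus 8 h, -0.4235), in CCN1 by 0.24 (-0.2354) and in CCN2 by 0.17 (-0.1703). It was higher at 24 h in YAP1 by 0.20 (0.1993), in TEAD1 by 0.14 (0.1448) and in AMOTL2 by 0.10 (0.0999). Over all genes tested, 54.8% differed between the times at the same threshold. The AMOTL2 difference was the least secure, with an adjusted p of 0.0494 that rose to between 0.0533 and 0.206 without untreated replicate 3, any 8 h library, or the first or second 24 h library.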

How the results depend on the processing

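Of 20 calls on the 10 genes over the 3 comparisons, 14 kept their direction and call with any 1 library left out and under every other alternative except the log2 limit of 0.5. These were WWTR1, CCN2 and ANKRD1 at 8 h, YAP1, TEAD1, WWTR1, CCN1, CCN2, ANKRD1 and AMOTL2 at 24 h, and YAP1, TEAD1, CCN1 and ANKRD1 between the times. With a log2 fold change beyond 0.5 required, no member was higher in any comparison (0), 2 were lower at 8 h (WWTR1 and ANKRD1), 1 at 24 h (ANKRD1) and 0 between the times, and over all genes 1673 were higher and 1270 lower at 8 h, 1695 and 1400 at 24 h, and 1716 and 1789 between the times. The count of members higher at 8 h, AJUBA alone, was 0 with RLE factors, DESeq2, no filter on low counts, only the 2 groups compared, the replicate block and library sizes without mitochondrial genes, and 0 to 1 with a library left out. LATS2 at 24 h lost its call in 8 of 10 other settings and without 6 of 9 libraries. LATS2 at 8 h gained a call with RLE factors, library sizes without mitochondrial genes, and without untreated replicate 3 or replicate 2 or 3 at 24 h (adjusted p = 0.0442 to 0.0462). AMOTL1 between the times gained a call with RLE and upper-quartile factors, DESeq2, 10 counts in every library, only the 2 groups compared and library sizes without mitochondrial genes.

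None of the values that crossed 0 was called. YAP1 at 8 h became 0.0116 with upper-quartile factors and 0.0003 with 10 counts in every library, and ran from -0.0373 to 0.0093 with a library left out, and TEAD1 at 8 h became 0.0076 with upper-quartile factors. LATS2 between the times became 0.0086 with RLE factors, 0.0088 with upper-quartile factors, 0.0087 with DESeq2, 0.0055 with no filter, 0.0042 with 10 counts in every library, 0.0223 with only the 2 groups compared and 0.0021 without mitochondrial genes in the library sizes (-0.0204 to 0.0196 with a library left out). AJUBA became 0.0109, 0.0110, 0.0109, 0.0077, 0.0065, 0.0247 and 0.0044 under the same settings in that order (-0.0021 to 0.0066). TGFB2 at 8 h became -0.0067 with no filter, and with a library left out it ran from -0.0292 to 0.0238, CCN3 at 8 h from -0.15 to 0.0223 and TAGLN at 24 h from -0.0388 to 0.244. The cause was not tested.

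Libraries with the same replicate number did not deviate together (correlations of deviations from the group means from -0.0801 to 0.0383). No pairing by number is thus seen in the values, but this cannot tell whether replicates of the same number were made together. With the replicate number as a block, AJUBA lost its call at 8 h (adjusted p = 0.0539) and 24 h (0.053) and LATS2 at 24 h (0.0572), and no other call on the 10 genes changed. Counting error is the least error of a value, and the spread between libraries adds to it.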
